A study of Mus musculus with 16 samples.

Results

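Mouse gut tubes were profiled by RNA-seq both as intact tissue and after enzymatic dissociation into single cells. This comparison rests on 4 of the 16 libraries of the series: 2 titled as dissociated cells of the E8.75 gut tube and 2 titled as bulk tissue of the same tube. They were chosen by title alone, and 17313 genes were tested. According to the labels, embryos carried 1 copy of an Afp-GFP transgene, which marks cells of visceral endoderm origin, and were taken at the 13-somite stage. Heads and extraembryonic membranes were removed, the torsos were treated with pancreatin and trypsin for 5 min on ice, and gut tubes were freed with needles. Dissociation was 20 min at 37°C in Accutase and 0.25% trypsin (1:2). The labels give the same protocol text for every sample, so the exact handling of the bulk tissue before lysis is not stated separately. The 8 libraries of 4 gut tube sections (anterior, anterior-midgut, midgut-posterior and posterior), whose titles name no dissociation, served as a second reference. The labels state neither the number of embryos per library nor whether paired libraries came from separate pools, so p-values measure only the spread between these samples.

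The gut tube at this stage is an epithelium of definitive and visceral endoderm origin wrapped in mesoderm, with blood vessels and blood cells alongside. Immediate early genes are switched on within minutes of a stimulus by kinases that act on factors already present in the cell, such as serum response factor and CREB, and their short-lived transcripts encode mostly transcription factors. Warm enzymatic dissociation is a known stimulus of this kind. Whether it acted on the libraries here was not tested.

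Expression is reported in CPM after TMM scaling of each library's total. The dissociated libraries held 79331084 and 76219837 counts and the bulk libraries 59165411 and 63843121. Differences between groups are log2 differences from 1 edgeR fit of all 16 libraries, with Benjamini-Hochberg adjusted p over all genes tested. The standard error after each ± is the size of the log2 difference divided by the square root of the test's F statistic. It draws on the spread within all groups of the fit and not on the compared libraries alone. The dissociated libraries differed from each other more than the other pairs of gut tube libraries did. Between dissociated 1 and dissociated 2, 1397 genes (8.07%) were more than 2-fold apart on the scale of CPM + 1. The bulk pair had 148 such genes (0.855%), and the section pairs had between 69 and 493. Gut endoderm genes such as Foxa1 (64.1 and 73.2 CPM dissociated, 77.3 and 109 CPM bulk) were present in every library. Xist, the noncoding RNA of the inactive X chromosome, stood at 7.27 and 174 CPM in dissociated 1 and 2 and at 1.43 and 524 CPM in bulk 1 and 2, so both pairs were uneven for this RNA.

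No gene passed an adjusted p of 0.05 between dissociated cells and bulk tissue in edgeR (0% of those tested), although 2809 genes had an unadjusted p under 0.05. DESeq2 called 140 genes higher (0.809%) and 120 lower (0.693%) in dissociated cells. Without dissociated 1, edgeR passed 4754 genes, with the lone dissociated library assumed to vary like the other groups; without dissociated 2 it passed 0, and without bulk 2 it passed 5. Both dissociated libraries lay above both bulk libraries for 3333 genes (19.3%) and below both for 3160 genes (18.3%). The smallest adjusted p, 0.0596, belonged to Klf2 and Jun. Genes below are therefore given as values from libraries that do not overlap, and not as calls. With 2 libraries against 2, an exact permutation test of a single gene cannot give a two-sided p under 0.333.

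Immediate early genes led the side that was higher in dissociated cells. Of 34 such genes, all tested, 24 were higher in both dissociated libraries than in both bulk libraries (against 19.3% of all genes), 1 was lower and 9 overlapped. The median log2 difference over the list was 1.30, beside -0.01 over all genes. Against the bulk mean it was 1.03 in dissociated 1 and 1.22 in dissociated 2, so here the dissociated libraries were alike. DESeq2 called 15 of the 34 higher and 0 lower. Of the 12 genes with the smallest p on the higher side, 9 were on this list: Klf2, Jun, Junb, Ier2, Jund, Zfp36, Rhob, Atf3 and Btg2.

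Fos and Jun proteins pair to form the transcription factor AP-1. Fos stood at 276 and 388 CPM in dissociated cells and at 2.66 and 55.9 CPM in bulk tissue, a log2 difference of 3.50 ± 0.94 (edgeR adjusted p = 0.254). Both dissociated values exceeded all 10 other gut tube values, and the bulk libraries were far apart from each other. Fosb, a close relative of Fos, read 157 and 203 CPM against 0.708 and 32.9 CPM. Jun, the main partner of Fos, read 385 and 424 CPM against 52.6 and 83.8 CPM, a log2 difference of 2.57 ± 0.34. Its groups were well separated, and its dissociated pair was closer than its bulk pair. Junb, a further Jun family member, read 59.6 and 59.4 CPM against 7.95 and 13.9 CPM (log2 2.44 ± 0.35; edgeR adjusted p = 0.102). Jund was less even, with 229 and 504 CPM in dissociated cells against 116 and 111 CPM in bulk tissue. Fosl1, which belongs to the same family, read 1.12 and 1.13 CPM against 1.29 and 1.12 CPM, so its groups overlapped.

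The Egr zinc finger factors are classic serum-induced genes. Egr1 read 278 and 224 CPM in dissociated cells and 3.36 and 36.3 CPM in bulk tissue (log2 3.66 ± 0.82; edgeR adjusted p = 0.254). Egr2 read 12.8 and 11.2 CPM against 0.323 and 1.00 CPM, the largest log2 difference among these early genes at 4.17 ± 0.95. In both genes the lower bulk value came from bulk 1, as it did for Fos and Fosb. The Krüppel-like factor Klf2, known for its response to fluid shear in endothelium, read 32.9 and 38.3 CPM against 3.90 and 8.01 CPM (log2 2.58 ± 0.34). Atf3, a stress-induced factor of the ATF family, read 33.3 and 44.1 CPM against 7.93 and 10.7 CPM. The nuclear receptor gene Nr4a1 read 40.2 and 47.4 CPM against 9.76 and 11.3 CPM. None of these 3 genes overlapped between dissociated and bulk libraries.

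**Figure D1:**
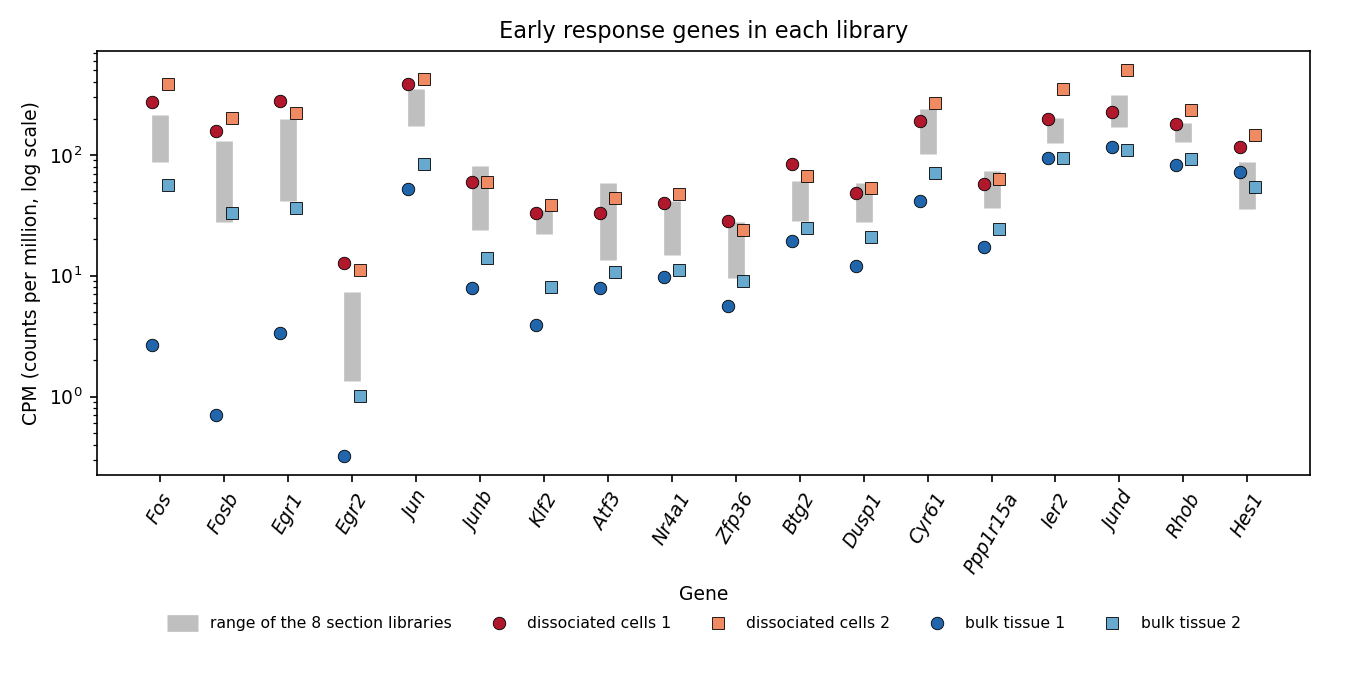
CPM of 18 early response and related genes on a log axis, with 1 point per dissociated or bulk library and a grey bar for the range of the 8 section libraries. Both dissociated points lie above both bulk points for every gene shown, and most bulk points lie under the grey bar, with Hes1 and 1 point of Fosb as exceptions.

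Several early genes restrain the response they belong to. Zfp36 encodes tristetraprolin, which speeds the decay of AU-rich transcripts, and read 28.2 and 24.1 CPM in dissociated cells against 5.59 and 8.97 CPM in bulk tissue (log2 1.84 ± 0.30; edgeR adjusted p = 0.126). Btg2, an antiproliferative factor, read 83.3 and 67.3 CPM against 19.3 and 24.9 CPM. Dusp1, a phosphatase that switches off MAP kinases, read 48.7 and 53.6 CPM against 12.0 and 21.1 CPM. All 3 were higher in both dissociated libraries, and the 250 bases before each of their annotated starts are shown because they hold a textbook element for such a response: the CArG box bound by serum response factor, or the cAMP response element (CRE) TGACGTCA bound by CREB and ATF proteins. The sequences are from RefSeq on GRCm38.p6, all on the minus strand and read toward the gene, with the element in capitals.
Zfp36, chr7:28379229-28379478, CArG box: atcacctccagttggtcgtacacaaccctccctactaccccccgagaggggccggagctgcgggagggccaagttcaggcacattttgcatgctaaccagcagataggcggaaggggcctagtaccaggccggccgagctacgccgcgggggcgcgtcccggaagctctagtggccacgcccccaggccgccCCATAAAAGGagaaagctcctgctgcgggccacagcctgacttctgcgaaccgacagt
Btg2, chr1:134079156-134079405, CRE: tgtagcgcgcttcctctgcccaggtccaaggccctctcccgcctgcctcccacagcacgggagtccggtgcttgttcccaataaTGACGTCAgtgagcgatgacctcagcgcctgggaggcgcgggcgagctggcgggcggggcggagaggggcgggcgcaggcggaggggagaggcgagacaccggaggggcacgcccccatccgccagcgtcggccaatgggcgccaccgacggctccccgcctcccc
Dusp1, chr17:26508473-26508722, CRE: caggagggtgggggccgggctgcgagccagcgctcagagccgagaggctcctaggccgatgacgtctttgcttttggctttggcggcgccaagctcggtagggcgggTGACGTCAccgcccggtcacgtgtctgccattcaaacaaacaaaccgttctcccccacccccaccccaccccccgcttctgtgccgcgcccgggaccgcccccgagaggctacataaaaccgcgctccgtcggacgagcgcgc
The elements begin 58, 166 and 143 bases before the start of Zfp36, Btg2 and Dusp1. Windows were found for 28 of the 34 early genes and were searched on both strands. As search patterns both elements match the same places on either strand, though the letters of a single CArG box can differ between strands. The elements did not overlap each other in these windows. A CArG box was present for 3 of the 28 genes (Egr2, Dusp5 and Zfp36) and for 1.62% of all 27025 symbols with a window. A CRE was present for 3 of the 28 (Btg2, Maff and Dusp1) and for 1.77% of all symbols. A match describes the letters and not a bound site.

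Ppp1r15a, which encodes GADD34, the subunit that reverses the translation block of the integrated stress response, read 57.4 and 62.9 CPM in dissociated cells against 17.3 and 24.2 CPM in bulk tissue. Cyr61, listed as CYR61, is a secreted matricellular protein and a target of both serum response factor and YAP. It read 191 and 271 CPM against 41.3 and 70.4 CPM (log2 2.04 ± 0.43; edgeR adjusted p = 0.242). For Ppp1r15a and Cyr61 both bulk libraries lay below all other gut tube libraries. The section range of Ppp1r15a, 36.5 to 73.6 CPM, took in both dissociated values. That of Cyr61, 102 to 242 CPM, took in dissociated 1. Rhob, a small GTPase induced by growth factors, read 182 and 234 CPM against 82.8 and 91.9 CPM. Its groups did not overlap, and the bulk pair was the tighter. Cytoskeletal genes were closer to bulk: Actg1, cytoplasmic gamma-actin, read 1034 and 977 CPM against 758 and 800 CPM. The list of serum response factor and YAP targets with cytoskeletal genes had 10 of 22 members higher in both dissociated libraries (19.3% of all genes) and 1 lower (18.3% of all genes), with a median log2 difference of 0.35.

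Feedback genes of the MAP kinase pathway, which are induced by the same signal and dampen it, lay on the lower side: 8 of 12 were below bulk tissue in both dissociated libraries (against 18.3% of all genes) and 0 were above it, with a median log2 difference of -0.56. Il17rd, a membrane inhibitor of FGF signalling, read 64.9 and 65.9 CPM in dissociated cells against 101 and 149 CPM in bulk tissue (log2 -0.93 ± 0.24; edgeR adjusted p = 0.254). Spry2, a Sprouty inhibitor of receptor tyrosine kinase signalling, read 20.8 and 28.9 CPM against 38.7 and 39.7 CPM. The section ranges of Il17rd (26.8 to 194 CPM) and Spry2 (18.6 to 62.4 CPM) took in all 4 values. Against the sections the list's median log2 difference was -0.21, and 2 of the 12 fell in edgeR (4.85% of all genes). Dusp6, the phosphatase for ERK and the single early gene lower in both dissociated libraries, read 100.2 and 74.5 CPM against 103 and 116 CPM. The values of Dusp6 were separated only narrowly.

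The section libraries place the bulk values in context. For 17 of the 34 early genes both bulk libraries lay below the other 10 gut tube libraries, dissociated and sections alike, where 2.96% of all genes did so. Both dissociated libraries lay above all 10 undissociated libraries for 6 early genes (Fos, Fosb, Jun, Egr1, Egr2 and Btg2), where 4.46% of all genes did so, and below all 10 for 0 (3.57% of all genes). Jun read between 174 and 349 CPM in the sections and Junb between 23.9 and 81.0 CPM, so the dissociated values of Junb lay within the section range. Klf2 read between 22.3 and 35.1 CPM and Egr1 between 41.8 and 199.9 CPM in the sections. Summed over the list, early genes came to 2570 and 3118 CPM in dissociated cells, 790 and 996 CPM in bulk tissue, and 1500 to 2379 CPM in the sections. The gap between dissociated and bulk libraries was thus wider than the gap between dissociated and section libraries.

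A fit of dissociated cells against the mean of the 4 sections shares the dissociated libraries with the comparison above and is not independent of it. Because that mean is taken on a log scale, genes confined to 1 section come out high: 10 of 14 tested Hox genes of groups 9 to 13 passed as higher. In all, 1151 genes rose (6.65%) and 840 fell (4.85%) in edgeR. Without dissociated 2 the total was 144 genes, and without dissociated 1 it was 6219. Of the 34 early genes, Ier2 was the only one that passed in edgeR (126 to 203 CPM in sections, 197 and 350 CPM dissociated; log2 0.70 ± 0.18, adjusted p = 0.0311), and over the alternatives between 0 and 6 of the 34 passed, 0 of them without dissociated 2. The list's median log2 difference was 0.24, beside 0.06 for all genes. Hes1, a Notch target that also answers serum, rose by 1.33 ± 0.13 on the log2 scale (edgeR adjusted p = 0.000394). It read 116 and 147 CPM in dissociated cells, 72.0 and 54.6 CPM in bulk tissue and 35.8 to 88.0 CPM in sections, so the dissociated values were above all others.

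Heat shock genes and chaperones lay on the higher side by small margins. Of 24 such genes 10 were higher in both dissociated libraries (19.3% of all genes) and 0 lower (18.3% of all genes), with a median log2 difference of 0.19. The inducible Hsp70 genes Hspa1a (1.56 and 0.566 CPM against 1.72 and 0.617 CPM) and Hspa1b (7.47 and 1.86 CPM against 4.87 and 1.52 CPM) overlapped between the groups. Hspa8, the constitutive cousin of Hsp70, read 2325 and 2600 CPM against 2060 and 1681 CPM (log2 0.40 ± 0.11; edgeR adjusted p = 0.254). Against the sections, 9 of the 24 rose (6.65% of all genes) and 0 fell (4.85% of all genes) in edgeR. Hspa8 rose by 0.55 ± 0.09 and the co-chaperone Bag3 by 0.84 ± 0.19 on the log2 scale. Without dissociated 2, 2 of the 24 passed. All 4 values of Hspa1b lay above the section median of 0.893 CPM. In the list of endoplasmic reticulum stress and amino acid response genes, 13 of 25 were higher than bulk in both dissociated libraries (19.3% of all genes) and 2 were lower (18.3%), with a median of 0.24. Manf, a secreted protein of the unfolded protein response, read 259 and 285 CPM against 211 and 183 CPM.

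Genes of primitive red blood cells were lower in dissociated cells. Of 13 tested, 10 were below bulk tissue in both dissociated libraries (18.3% of all genes) and 0 above (19.3%), with a median log2 difference of -1.31, close in dissociated 1 (-0.93 against the bulk mean) and dissociated 2 (-0.72). The embryonic beta-globin Hbb-bh1 read 97.6 and 117 CPM in dissociated cells against 168 and 330.5 CPM in bulk tissue (log2 -1.22 ± 0.34; edgeR adjusted p = 0.254). Slc4a1, the band 3 anion exchanger, read 4.77 and 2.32 CPM against 6.82 and 17.0 CPM. Against the sections 6 of the 13 fell in edgeR (4.85% of all genes), Hbb-bh1 by 1.77 ± 0.30 on the log2 scale (adjusted p = 0.00924), and 0 passed without dissociated 2. In bulk samples fewer cells of a type and less RNA per cell cannot be told apart. The summed blood list was 310 and 325 CPM in dissociated cells, 493 and 820 CPM in bulk tissue and 392 to 1115 CPM in sections, so both dissociated libraries lay below every other gut tube library.

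Other cell types did not separate the groups in the same way. Endothelial genes summed to 1152 and 556 CPM in dissociated 1 and 2, on either side of bulk tissue at 734 and 699 CPM. For 2 of 16 endothelial genes both dissociated libraries were above bulk (19.3% of all genes), and for 0 below (18.3% of all genes). Germ cell genes summed to 295 and 348 CPM against 303 and 351 CPM. Of the 12 leukocyte genes 4 passed the filter on low counts, and the whole list summed to 13.5 and 10.8 CPM against 6.93 and 10.5 CPM. The part of these cell types in other results was not tested.

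**Figure D2:**
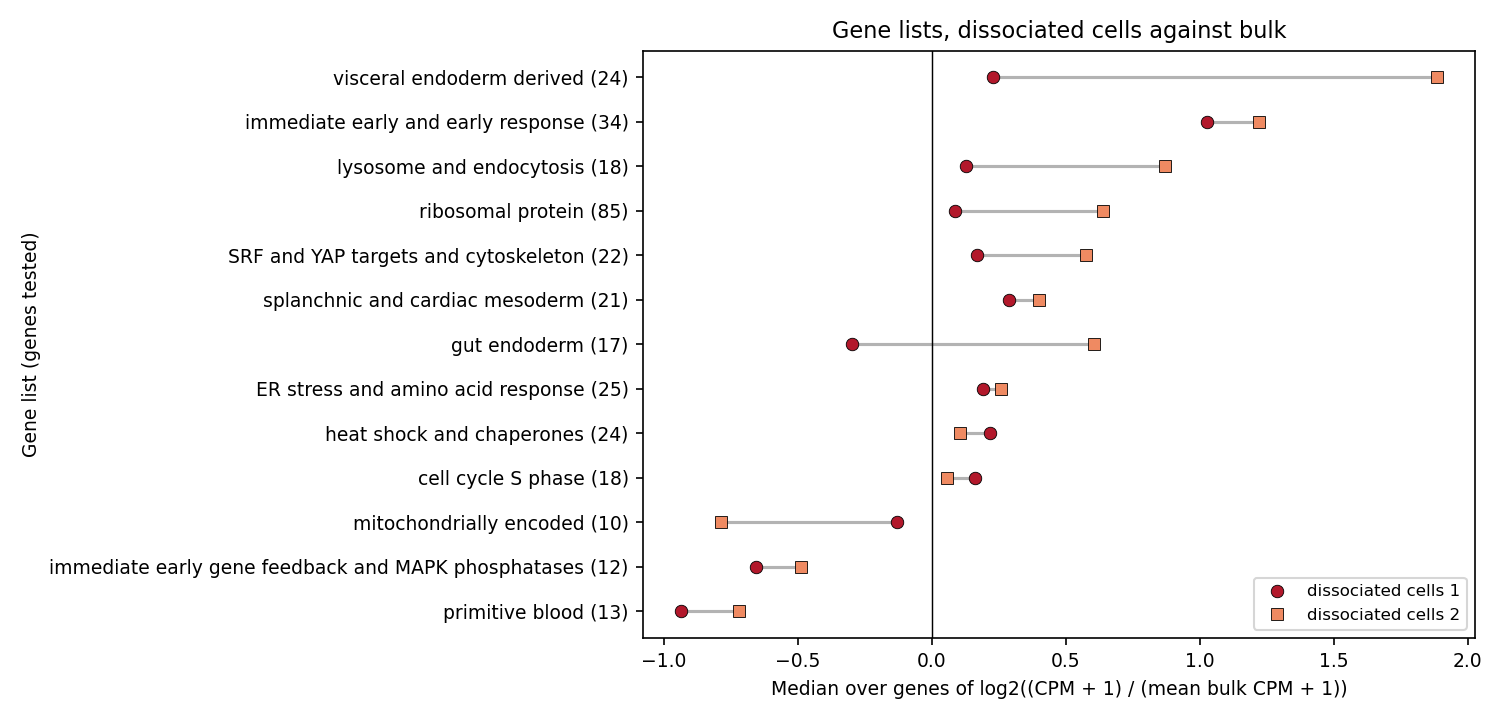
Median log2 ratio to the bulk mean (CPM + 1) for 13 gene lists, with 1 point per dissociated library and the number of genes tested in brackets. Early response genes lie at 1.03 and 1.22, the blood list at -0.93 and -0.72, and lists such as visceral endoderm (0.23 and 1.89) differ between the dissociated libraries.

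None of the 12 genes with the smallest p on the lower side belonged to one of the gene lists. Sulf1, a sulfatase that edits heparan sulfate at the cell surface, read 40.0 and 49.6 CPM in dissociated cells against 81.6 and 103 CPM in bulk tissue (log2 -1.04 ± 0.17; edgeR adjusted p = 0.126). Its section values ran from 33.5 to 154 CPM and took in all 4 libraries. Mat2a, which makes the methyl donor S-adenosylmethionine, read 246 and 180 CPM against 303 and 358 CPM, below the section range of 291 to 355 CPM. Against the sections Mat2a fell by 0.59 ± 0.11 on the log2 scale (edgeR adjusted p = 0.0118). Asah2, a neutral ceramidase, read 5.14 and 4.002 CPM against 9.35 and 11.3 CPM. Srcap, the ATPase of a complex that deposits the histone variant H2A.Z, read 4.39 and 3.19 CPM against 7.45 and 8.90 CPM. Agrin, encoded by Agrn and a heparan sulfate proteoglycan of basement membranes, read 323 and 304 CPM against 408 and 463 CPM. All of these had both dissociated libraries below both bulk libraries.

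Genes for zinc finger proteins recurred on the lower side. Zfp866 read 17.1 and 15.8 CPM in dissociated cells against 32.9 and 36.4 CPM in bulk tissue (log2 -1.07 ± 0.19; edgeR adjusted p = 0.159), and 10.2 to 16.3 CPM in sections. Zfp760 read 16.2 and 9.53 CPM against 33.5 and 33.2 CPM, with sections between 16.4 and 21.3 CPM. For both genes the bulk values lay above the other 10 gut tube libraries. The dissociated values of Zfp760 lay below all 8 sections, and dissociated 1 was the nearer to them. The family was then counted after these values were seen: of 347 tested genes named Zfp and a number, 184 (53.03%) were lower in both dissociated libraries than in bulk tissue (18.3% of all genes) and 12 were higher (19.3%). Both bulk libraries lay above the other 10 gut tube libraries for 117 of the 347, where 3.17% of all genes did so. Against the bulk mean the family's median was -0.18 in dissociated 1 and -0.57 in dissociated 2. The family was closer to the sections, with a median log2 difference of -0.07, beside 0.06 for all genes. In edgeR 14 of the 347 passed as higher than the sections (6.65% of all genes) and 6 as lower (4.85%). Both dissociated libraries lay below all 10 undissociated libraries for 15 of the 347, where 3.57% of all genes did so. The nuclear noncoding RNA Malat1 was also highest in bulk tissue, at 121 and 80.2 CPM in dissociated cells, 188 and 174 CPM in bulk tissue and 38.3 to 58.7 CPM in sections. Unlike Zfp760, it was higher in dissociated cells than in every section.

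Ribosomal protein genes, which encode the protein part of the ribosome, were higher mainly in 1 dissociated library. Of 85 genes 55 had both dissociated libraries above both bulk libraries (19.3% of all genes) and 1 below (18.3%), with a median log2 difference of 0.39. Against the bulk mean the median was 0.09 in dissociated 1 and 0.64 in dissociated 2. Their share of all counts was 5.94% and 8.51% in dissociated cells and 6.01% and 5.55% in bulk tissue. For 29 of the 85 both bulk libraries lay below the other 10 gut tube libraries, where 2.96% of all genes did so. Lysosomal genes too were higher mainly in dissociated 2, with medians of 0.13 in dissociated 1 and 0.87 in dissociated 2. Of 18 such genes 12 were higher in both dissociated libraries (19.3% of all genes) and 0 lower (18.3%). Both bulk libraries lay below the other 10 for 0 of the 18. Mitochondrially encoded genes took 1.88% and 0.959% of counts in dissociated cells against 1.63% and 2.56% in bulk tissue, and 1.96% to 2.63% in sections. Some of these genes were listed near 0, such as mt-Atp6 (0.265 and 0 CPM dissociated, 0.385 and 1.08 CPM bulk), so the share covers the genes as counted in these tables and not all mitochondrial RNA.

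The dissociated libraries differed from each other in regional and cell type genes. Dissociated 1 was low in genes of the pharynx and anterior foregut: over 18 such genes the median against the bulk mean was -1.74 in dissociated 1 and 0.27 in dissociated 2. Foxe1, a factor of the thyroid primordium, read 0.723 CPM in dissociated 1 and 37.0 CPM in dissociated 2, and 23.8 and 16.2 CPM in bulk tissue. Tbx1, which patterns the pharyngeal arches, read 4.40 and 62.5 CPM, with bulk tissue at 49.4 and 38.6 CPM. Hox genes of groups 9 to 13, which mark the posterior end, had medians of 0.47 in dissociated 1 and -0.42 in dissociated 2. For the pharyngeal genes dissociated 2 was thus the one near bulk tissue.

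Several heart muscle genes and many visceral endoderm genes were high in dissociated 2. Actc1, cardiac alpha-actin, read 65.8 CPM in dissociated 1 and 666 CPM in dissociated 2, with bulk tissue at 91.6 and 14.97 CPM. Myh6, a cardiac myosin heavy chain, read 29.4 and 321 CPM, with bulk tissue at 55.5 and 7.05 CPM. Nkx2-5, a cardiac transcription factor also present in pharyngeal endoderm, read 5.15 and 72.3 CPM, with bulk tissue at 24.5 and 14.8 CPM. Bulk tissue too was uneven for heart muscle genes, and the sections spanned 4.64 to 628 CPM for Actc1. The wider list of splanchnic and cardiac mesoderm did not follow them: over its 21 genes the median against the bulk mean was 0.29 in dissociated 1 and 0.40 in dissociated 2. Apolipoprotein genes of visceral endoderm were also higher in dissociated 2 than in dissociated 1. Apoa4 read 9.20 and 142 CPM in dissociated cells against 2.02 and 12.2 CPM in bulk tissue. Apoa1 read 69.6 and 607 CPM against 24.4 and 80.2 CPM. In bulk tissue Apoa4 and Apoa1 were higher in bulk 2, whereas Actc1, Myh6 and Nkx2-5 were higher in bulk 1. Over 24 visceral endoderm genes the median log2 difference was 1.41, with 0.23 in dissociated 1 and 1.89 in dissociated 2 against the bulk mean. Without dissociated 2 the median was 0.23, so the size of that difference rested on this library.

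**Figure D3:**
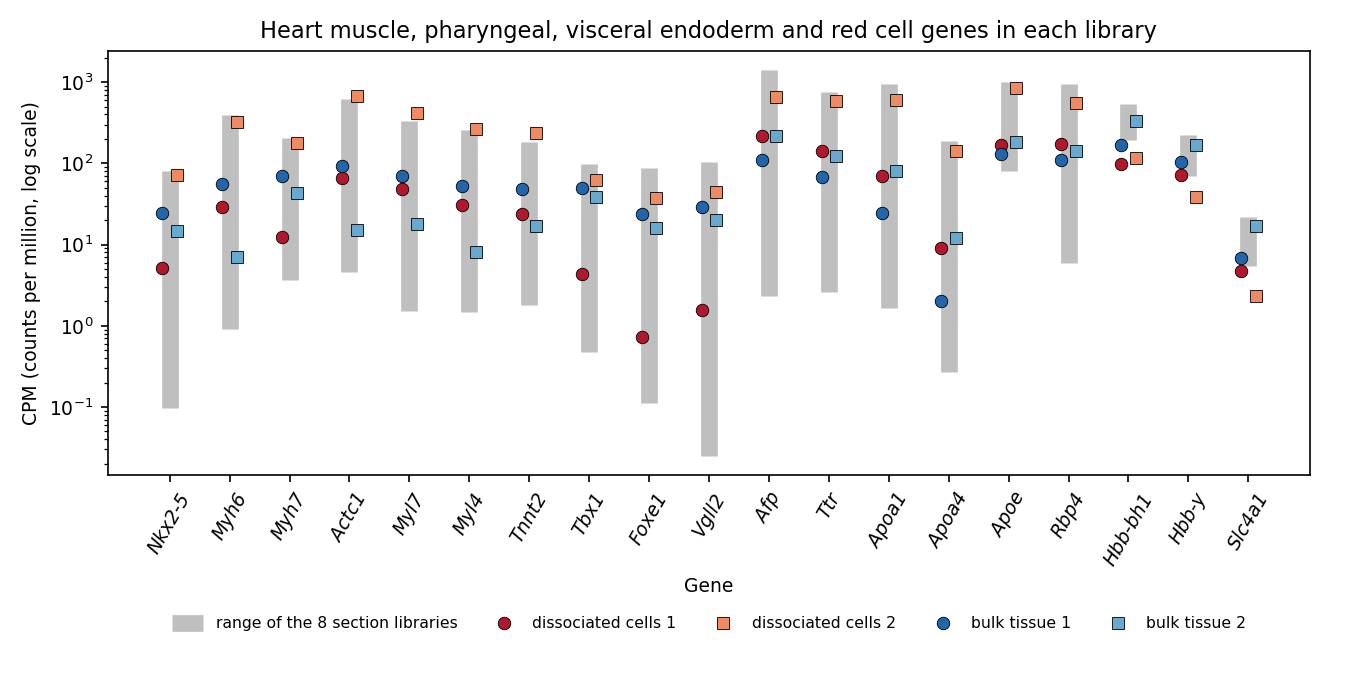
CPM of 19 genes of heart muscle, pharynx, visceral endoderm and red blood cells on a log axis, with 1 point per library and a grey bar for the range of the 8 section libraries. Dissociated 2 lies above dissociated 1 for the heart, pharyngeal and visceral endoderm genes, and both lie below bulk tissue for the last 3 genes, those of red blood cells.

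On the other side, dissociated 2 was low in genes with no shared region. Vcl, the focal adhesion protein vinculin, read 68.5 CPM in dissociated 1 and 10.4 CPM in dissociated 2, with bulk tissue at 46.3 and 80.1 CPM and sections at 61.3 to 80.5 CPM. Arhgap5, a GTPase-activating protein, read 46.6 and 6.58 CPM, with bulk tissue at 39.7 and 79.6 CPM. Mest, an imprinted mesodermal gene, read 1094 and 212 CPM, with bulk tissue at 786 and 938 CPM. Atp7a, a copper transporter, read 23.6 and 1.32 CPM, with bulk tissue at 13.2 and 39.2 CPM. For Vcl, Arhgap5, Mest and Atp7a dissociated 2 lay below all 8 sections. The Y-linked genes Ddx3y (30.2 and 4.33 CPM) and Kdm5d (34.6 and 5.96 CPM) were also among the 10 genes furthest on this side, with Xist among the 10 on the other.

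Across all genes with an annotated transcript, the difference between the dissociated libraries varied with transcript length and base composition. Whether the regional and cell type genes named above followed this trend was not tested. Among 16879 genes with an annotated transcript, the fifth with the shortest transcripts had a median log2 difference from the median of the sections of -0.02 in dissociated 1 and 0.21 in dissociated 2. In the fifth with the longest transcripts these medians were -0.01 and -0.27. In the same groups bulk 1 ran from 0.00083 to -0.01 and bulk 2 from -0.06 to 0.09. By GC content, dissociated 2 went from -0.37 in the fifth with the lowest to 0.36 in the fifth with the highest. In the same GC groups dissociated 1 went from -0.09 to 0.06, bulk 1 from -0.10 to 0.13 and bulk 2 from 0.0039 to -0.0046. The trend of bulk 1 was thus wider than that of dissociated 1. The median transcript was 1094 nt for ribosomal protein genes, 2552.5 nt for early genes and 3179 nt for all genes tested. The part of length and GC content in the list medians of dissociated 2 was not tested.

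**Figure D4:**
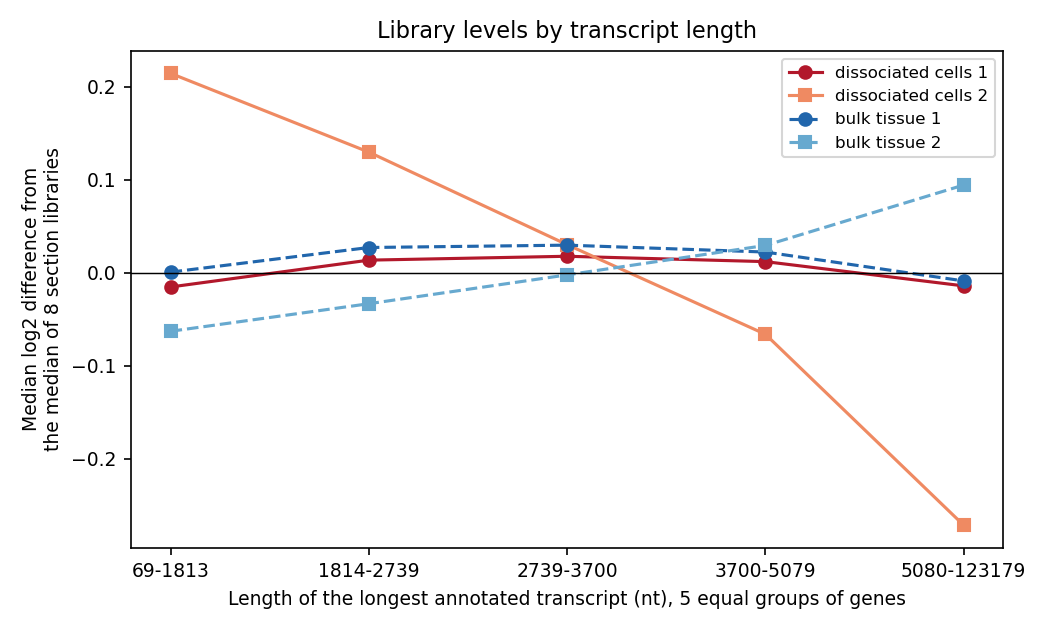
Median log2 difference of each dissociated or bulk library from the median of the 8 section libraries (CPM + 1), in 5 equal groups of genes by transcript length. Dissociated 2 falls from 0.21 at the short end to -0.27 at the long end, while dissociated 1 stays between -0.02 and 0.02.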

How the data were processed

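The authors deposited unnormalized counts for each gene symbol. STAR is named in the submitters' processing notes. Its version, the build, the annotation and the read counter were not given in the sources used here. Of 26795 entries, 32 repeated symbols were summed. Low genes were removed by filterByExpr (minimum count of 10, minimum total of 15). edgeR 4.0.16 in R 4.3.3 fitted all 16 libraries with TMM scaling and a coefficient per group (quasi-likelihood, 8 residual degrees of freedom); DESeq2 1.42.0 was an alternative. Steps were tested on simulated data.

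Differences between single libraries used CPM + 1. Transcript lengths are from GENCODE M21 (97.5% of genes tested). Named genes were the 12 with the smallest p in each direction whose libraries do not overlap, leaving out predicted genes and a mean log2 CPM under 3, up to 4 per list, and the 10 largest differences each way between the dissociated libraries at a mean of at least 16 CPM; others named were chosen after their values were seen. Members, the 49 lists and tests were chosen with earlier results of these data known. Libraries of a pair differed beyond sampling noise (chi-square per gene 328 dissociated, 55.9 bulk) and were not merged. Intervals here cover spread between these libraries only.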

Additional observations from a re-analysis of the deposited data

How the results depend on the processing

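Dissociated against bulk tissue passed 0 genes in edgeR. It stayed at 0 with RLE size factors, with only the compared groups and with only the 12 gut tube libraries in the fit. It became 7 (7 higher) with no filter on low counts and 7 (7 higher) with the replicate block; DESeq2 gave 260 (140 higher, 120 lower). Leaving out 1 library gave 0 to 4754 genes (0 to 2172 higher, 0 to 2582 lower); the highest counts came without dissociated 1, and without bulk 2 there were 5. The 7 genes passed under the replicate block were Atf3, Jun, Junb, Klf2, Ppp1r15a, Rhob and Zfp36. A crossed replicate block, added after seeing the data because same-numbered dissociated and bulk libraries deviated oppositely (correlation -0.265 across genes), passed 0 genes. All 50 genes whose log2 difference was followed kept their direction in every alternative run. Many of them were named because their dissociated and bulk libraries do not overlap. A kept direction was largely set by that choice and is no separate support.

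Against the mean of the sections edgeR passed 1991 genes (1151 higher, 840 lower). DESeq2 gave 3454 (1745 higher, 1709 lower), the fit of only the compared groups 459 (302 higher, 157 lower) and the fit of the 12 gut tube libraries 992 (625 higher, 367 lower). The replicate block gave 1376 (812 higher, 564 lower), and RLE size factors and no filter stayed within 1.5 times. Leaving out 1 library gave 144 to 6219 genes (92 to 3101 higher, 52 to 3118 lower). The lowest count was without dissociated 2 and the highest without dissociated 1; without 1 of the 8 section libraries the total was 929 to 1433. With a pseudocount of 0.25 in place of 1, 2289 genes differed more than 2-fold between the dissociated libraries, and 1472 on library totals. The cause of these shifts was not tested.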

Other observations

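Some anterior genes were lower in both dissociated libraries. Cyp26c1, an enzyme that degrades retinoic acid, read 0.844 and 4.06 CPM in dissociated cells against 12.9 and 10.4 CPM in bulk tissue, and Eya1, a cofactor in pharyngeal and otic development, read 15.7 and 23.7 CPM against 36.8 and 37.8 CPM. Neither gene overlapped between dissociated and bulk libraries, and the section ranges (0.503 to 37.8 CPM for Cyp26c1 and 10.6 to 113 CPM for Eya1) took in all 4 values. Hhex, a factor of the liver and thyroid buds, went the other way at 22.2 and 33.7 CPM against 14.4 and 13.0 CPM.

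Among 28 genes of epithelial junctions and polarity, 5 were above bulk tissue in both dissociated libraries (19.3% of all genes) and 4 below (18.3%), and the median against the bulk mean was -0.21 in dissociated 1 and 0.53 in dissociated 2. The keratin genes of simple epithelia on that list, Krt8 (584 and 1075 CPM against 489 and 477 CPM) and Krt18 (637 and 1397 CPM against 554 and 511 CPM), were higher in both dissociated libraries. Against the mean of the sections both rose in edgeR (Krt8 log2 0.71 ± 0.17, adjusted p = 0.0251; Krt18 log2 0.93 ± 0.20, adjusted p = 0.0175), but dissociated 1 lay within the section range of both (298 to 769 CPM for Krt8 and 373 to 770 CPM for Krt18) and dissociated 2 above it. Of 18 S phase genes, 9 were above bulk tissue in both dissociated libraries (19.3% of all genes) and 0 below (18.3%). Their median log2 difference was small at 0.12, and against the bulk mean it was 0.16 in dissociated 1 and 0.06 in dissociated 2. Among the S phase genes, Mcm7, a subunit of the replicative helicase, read 549 and 659 CPM against 441 and 392 CPM. Of 23 cholesterol synthesis genes, 12 were higher in both dissociated libraries (19.3% of all genes) and 1 was lower (18.3%), with a median log2 difference of 0.17. Acat2, which supplies acetoacetyl-CoA to that pathway, read 109 and 145 CPM against 84.1 and 77.8 CPM.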
